A study of Homo sapiens with 9 samples.

Results

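Both hairpins against UGDH were compared with each other, library against library, in MDA-MB-231 cells, a long-established line from a human breast cancer of the triple-negative kind, which is classed as basal B. The comparison used the 3 libraries with shUGDH-1 and the 3 with shUGDH-2, which are 6 of the 9 libraries of the series, and every gene whose counts passed a filter on low values, 12442 of the 23710 entries of the count table. The other 3 libraries carried a non-targeting hairpin, shNT, and were left out of the main fit between the hairpins. They enter below as levels and in a separate fit of all 9 libraries, which tested each hairpin against shNT. All cultures, the shNT cultures included, were the same cell line transduced with lentivirus that carried a pGIPZ hairpin vector, and all were grown in DMEM with 5% FBS. The hairpin was the only labelled difference between the groups. Whether a culture was a pool or a clone of transduced cells, and whether the replicates were transduced separately, is not stated. The p-values below therefore measure the spread between these libraries.

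UGDH encodes UDP-glucose 6-dehydrogenase, which makes UDP-glucuronate, the building block of hyaluronan and of the sulfated glycosaminoglycans. A short hairpin RNA is cut by Dicer into a duplex of a guide and a passenger strand. The guide directs the Argonaute complex to transcripts with a full complement, which are cut, and, through its seed at bases 2 to 8, to partial complements in 3′ UTRs, as a microRNA does. Hairpins against a common target therefore share that target and differ in the seed.

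The sequences that distinguish the groups are shown first, 5′ to 3′, with the guides as the labels give them. The seed, in capitals, was not labelled. It was assigned here by counting from the 5′ end of each labelled sequence. The 5′ end of each guide as processed in the cells is unknown. Each guide has 19 bases and is antisense to UGDH.
shUGDH-1 guide: tTGCATCAaatatgcgacg
shUGDH-2 guide: aTATACTTcagatctgctg
UGDH site of shUGDH-1: cgtcgcatatttgatgcaa
UGDH site of shUGDH-2: cagcagatctgaagtatat
Both sites lie in exon 4 of the UGDH transcript ENST00000316423.10, in the coding sequence, on the minus strand of GRCh38, at chr4:39510687-39510705 for shUGDH-1 and chr4:39510800-39510818 for shUGDH-2. Each was found in 3 of the 4 protein-coding UGDH transcripts of GENCODE 29. In 3′ UTRs the complement of the shUGDH-1 seed reads TGATGCA and that of shUGDH-2 reads AAGTATA.

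UGDH itself was low with both hairpins, and the difference between them did not pass the test. Its level in CPM, counts scaled to a common library size with TMM factors, was 7.61, 7.3 and 8.03 in the shUGDH-1 libraries and 8.09, 6.63 and 6.8 in the shUGDH-2 libraries, against 53, 55.6 and 50.3 with shNT. The hairpin libraries overlapped each other and lay far below every shNT library. The log2 difference, shUGDH-2 minus shUGDH-1 here and throughout, was -0.09 (SE 0.14, 95% interval -0.36 to 0.18, adjusted p = 0.758, edgeR's quasi-likelihood test, adjusted after Benjamini-Hochberg, n = 3 per hairpin). At 74 to 99 reads per library, a difference within this interval could not be seen.

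Beyond UGDH, the hairpin groups differed in many genes by small amounts. Of the 12442 genes, 799 were higher and 807 lower with shUGDH-2 at an adjusted p under 0.05, which is 12.9% of the genes tested, 6.42% higher and 6.49% lower. The median absolute log2 difference of these 1606 genes was 0.18. A difference of 1.5-fold or more was seen in 56 higher and 62 lower genes, and 2-fold or more in 18 and 19. The libraries of the groups did not overlap for 1512 of the 1606 genes (94.1%), against 27.1% of all genes tested. DESeq2 on the same counts called fewer, 391 higher and 378 lower, and each of these 769 genes was among the 1606.

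The 6 libraries held 9249738 to 13328002 counts and 14899 to 15278 genes with a count, and shUGDH-1 replicate 3 was the shallowest. Over the genes, the variance of the difference between a pair of libraries was 1.2 to 1.47 times what counting gives within a hairpin and 3.03 to 3.67 times across hairpins. The first principal component, 43.5% of the variance, separated the hairpins, from -6.33 to -5.35 for shUGDH-1 and from 5.51 to 6.06 for shUGDH-2. All 12 markers of basal B cells were detected, with summed levels of 11100 to 11200 CPM with shUGDH-1, 10600 to 10800 CPM with shUGDH-2 and 10700 to 11000 CPM with shNT. Of these markers 5 were lower and 1 higher with shUGDH-2, 50% of the list beside 12.9% of all genes. The 13 leukocyte markers summed to 87.2 to 102 CPM, of which CD68, a lysosomal protein gene, held 82.5 to 99.1 CPM, with CD3E, CD2, MS4A1 and TYROBP among those at 0 in all 9 libraries, and the 10 fibroblast markers to 34.2 to 44.1 CPM, with DCN and LUM at 0. The luminal list had PGR and TFF3 among its members at 0 and is described below with the keratins.

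**Figure D1:**
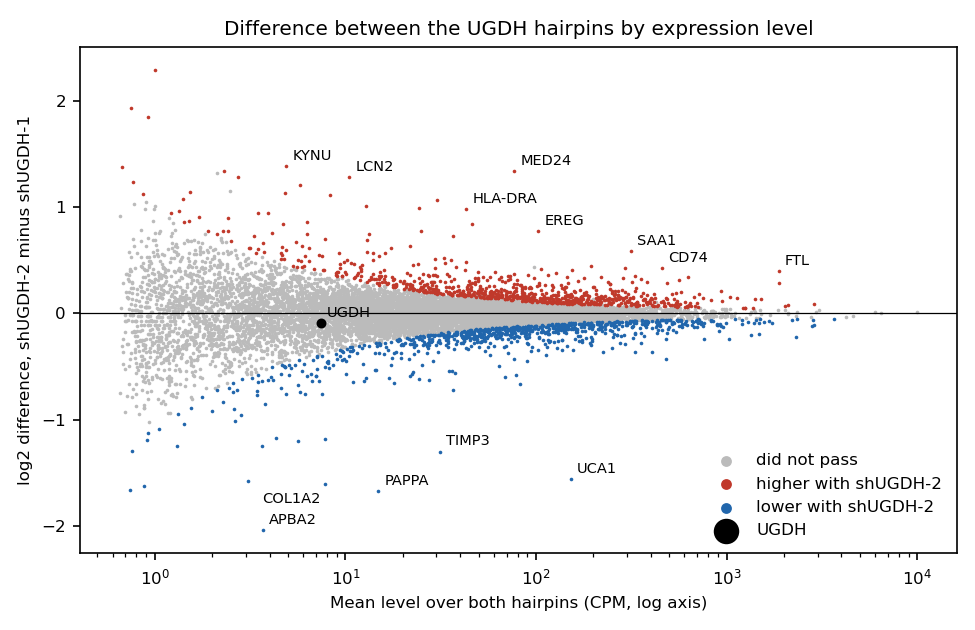
Difference between the hairpins for each tested gene (vertical axis, log2, shUGDH-2 minus shUGDH-1) against its mean level over both hairpins (horizontal axis, CPM, log scale). Red and blue points passed the test as higher (799 genes) and lower (807 genes) with shUGDH-2, grey points did not, and UGDH, in black, lies near 0.

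Genes of MHC class II antigen presentation stood higher with shUGDH-2 than with shUGDH-1, from 0.37 to 1.21 on the log2 scale. Of 13 members of the list in the table, 10 were tested, and 9 of these were higher and none lower, against 6.42% of all genes higher. The median log2 difference of the 10 was 1.0, beside -0.0004 over all genes tested. HLA-DRA, the invariant alpha chain of HLA-DR, had 30.1, 26.1 and 31 CPM with shUGDH-1 and 57.9, 55.9 and 57.5 CPM with shUGDH-2. Every shUGDH-2 library stood well above every shUGDH-1 library, and the shNT libraries, at 46.2, 45.8 and 45.1 CPM, lay between them. The log2 difference of HLA-DRA was 0.98 (SE 0.06, adjusted p = 2.26e-37, edgeR's quasi-likelihood test).

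The chains of HLA-DR and HLA-DP and the peptide exchange factor followed the same order. HLA-DRB1, an HLA-DR beta chain, averaged 19.6 ± 1.64 CPM with shUGDH-1 and 40.7 ± 2.09 CPM with shUGDH-2 (SD, n = 3), with shNT at 30.8 CPM. HLA-DRB5, at 1.21 on the log2 scale, is a near-identical paralog of HLA-DRB1, and how the counting divided their common reads is uncertain. HLA-DPA1 and HLA-DPB1, the chains of HLA-DP, differed by 0.99 and 1.01, and HLA-DMB, which with HLA-DMA exchanges peptides on class II molecules, by 1.12. Smaller differences were seen in HLA-DMA (0.37), in CD74, the invariant chain that escorts class II molecules (0.43), and in CIITA, the coactivator that drives class II transcription (0.46). HLA-DOA, a modulator of HLA-DM, differed by 1.01 at only 3 to 18 reads per library and did not pass (adjusted p = 0.0539). In 7 of the 9 genes that passed, HLA-DRA, HLA-DRB1, HLA-DRB5, HLA-DMB, HLA-DPA1, HLA-DPB1 and CD74, shUGDH-1 was lower than shNT and shUGDH-2 higher, and both differences passed. CIITA and HLA-DMA were higher than shNT with shUGDH-2, and their differences from shNT with shUGDH-1, -0.15 and -0.09, did not pass.

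Class I genes behaved otherwise. Of 19 tested genes of MHC class I and peptide loading, only TAPBP, the tapasin that holds class I molecules at the peptide transporter, passed, at 0.06 on the log2 scale, though not in 10 of its 17 alternatives, and the median was -0.026. Class I processing genes lie among the class II genes on chromosome 6. Of those next to HLA-DRB1 or HLA-DMB, TAP2, a subunit of the peptide transporter, differed by -0.003, and PSMB8 and PSMB9, subunits of the immunoproteasome, by -0.12 and -0.22, and none of these 3 passed.

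Class II promoters are known for a conserved Y box, an inverted CCAAT box, so promoters were searched for CCAATC in either direction. Windows are shown for HLA-DRB1, HLA-DRB5, HLA-DMA and HLA-DPB1, among the 6 members that hold it. RefSeq (GRCh38.p14) gave a promoter, 250 bases before to 50 bases after the start, for 8 of the 10 tested members, and GATTGG is the motif inverted, as in HLA-DRB1, HLA-DRB5 and HLA-DMA, while HLA-DPB1 holds it upright. It was present in 6 of the 8, in 5 of the 7 that were higher, and in 20% of the 9206 promoters of tested genes. The motif is in capitals.
HLA-DRB1: aactcagatgctGATTGGttctccaacacg
HLA-DRB5: aactcagatgctGATTGGttctccaacacg
HLA-DMA: ctacgcttctctGATTGGtttagacaaaat
HLA-DPB1: ctcagactctgtCCAATCccagggtcacag
The first 2 windows are identical over their 30 bases, at chr6:32589878-32589907 and chr6:32530361-32530390 on the minus strand. The HLA-DMA window is at chr6:32953160-32953189 on the minus strand and the HLA-DPB1 window at chr6:33075903-33075932 on the plus strand. The motif began 47, 91, 80 and 75 bases before the annotated start in HLA-DRB1, HLA-DRB5, HLA-DMA and HLA-DPB1. In HLA-DMB, not shown, it was upright and began 22 bases before the start. In HLA-DOA, not shown, it was inverted and began 68 bases before, and this gene did not pass. A match is a match of letters in the reference only.

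Secreted inflammatory and acute-phase genes were also higher with shUGDH-2. Of 43 tested NF-kB targets and secreted inflammatory factors, 19 were higher and 3 lower, 51.2% of the list beside 12.9% of all genes, with a median of 0.15, and 21 did not pass. SAA1, serum amyloid A1, an acute-phase protein, had 250, 255 and 248 CPM with shUGDH-1 and 381, 369 and 382 CPM with shUGDH-2. The shUGDH-1 libraries overlapped shNT, at 253, 262 and 255 CPM, while all shUGDH-2 libraries stood above both. SAA1 differed by 0.58 (SE 0.03, adjusted p = 9.36e-58, edgeR's quasi-likelihood test) and its paralog SAA2, which can share its reads, by 0.85.

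LCN2, lipocalin-2, which sequesters bacterial iron carriers, had 6.38, 5.34 and 6.73 CPM with shUGDH-1 and 15.2, 15.3 and 14 CPM with shUGDH-2, against a shNT mean of 3.88 CPM. It was higher than shNT with both hairpins, and the hairpins differed by 2.43-fold without overlap. Among cytokines and growth factors of myeloid cells, CSF3 differed by 0.70, IL1A by 0.38, CSF2 by 0.35, IL8 by 0.34 and IL6 by 0.32, all higher with shUGDH-2. NFKB1, the gene of the p50 subunit, differed by 0.19. The 3 lower members were NFKBIA, the inhibitor of NF-kB, at -0.06, IL11, a cytokine of the IL-6 family, at -0.54, and the chemokine gene CCL5, at -1.30 with only 2 to 14 reads per library. CCL5 was no longer called when shUGDH-2 replicate 2 was left out (-0.88, adjusted p = 0.272, edgeR's quasi-likelihood test), nor without shUGDH-2 replicate 1 or any of the shUGDH-1 libraries.

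Promoter letters were looked at for this list in the same way. The motif GGGA, any base, TTTCC was present on either strand in 11 of 32 members with a RefSeq promoter, but in only 3 of the 14 higher members with one, and in 0.587% of promoters of tested genes. Of the higher members, IL6 carried it at chr7:22727117-22727146 on the plus strand and CXCL2 at chr4:74099254-74099283 on the minus strand.
IL6: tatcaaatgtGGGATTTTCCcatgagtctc
CXCL2: ctggagctccGGGAATTTCCctggcccggg

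Of 18 tested complement genes, C3, C1S, C1R and CLU were higher with shUGDH-2 and CFP and CD46 lower, 33.3% of the list beside 12.9% of all genes. C3, the component on which all complement pathways converge, had 27.9, 27.1 and 27.6 CPM with shUGDH-1 and 49.5, 43.6 and 43.9 CPM with shUGDH-2. Against 17.4 CPM with shNT it was higher with both hairpins, further so with shUGDH-2 (log2 difference between the hairpins 0.73, SE 0.06). The proteases of the C1 complex, C1S and C1R, neighbours on chromosome 12, differed by 0.86 and 0.42, and C1R did not pass with DESeq2 or without shUGDH-2 replicate 1. CFP, properdin, which stabilises the alternative pathway convertase, was lower at -0.51. CFP did not pass in 6 of its 16 alternatives, among them the fits without shUGDH-1 replicate 1 or 3 and without shUGDH-2 replicate 1 or 3. DESeq2 called 2 complement genes higher in place of 4 and 0 lower in place of 2.

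Of 49 tested interferon-stimulated genes, 10 were lower and 3 higher with shUGDH-2, against 6.49% and 6.42% of all genes, and the median was -0.075. The higher ones were GBP2 (0.29), IRF1 (0.15) and GBP1 (0.12), which interferon gamma also induces. IFIT1, an RNA sensor of the antiviral response, had 34.6, 33.8 and 30.4 CPM with shUGDH-1 and 23, 25.1 and 24.9 CPM with shUGDH-2, without overlap. IFIT2 differed by -0.31, ISG15, a ubiquitin-like modifier, by -0.25 and IFIT3 by -0.17. IFIT1, IFIT2 and IFIT3 lie side by side on chromosome 10, with LIPA, also lower, next to them. The count of 10 lower genes was 5 with DESeq2, 6 with all 9 libraries in the fit, 5 without shUGDH-1 replicate 1, and 6 without shUGDH-2 replicate 2 or replicate 3.

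Transcripts of both ferritin chains and of a cystine importer were higher with shUGDH-2. NRF2 is a transcription factor that induces antioxidant and iron storage genes, and of 38 tested targets 11 were higher and none lower, 28.9% of the list beside 12.9% of all genes, with a median of 0.059. FTL, the ferritin light chain, had 1583, 1631 and 1635 CPM with shUGDH-1 and 2150, 2103 and 2136 CPM with shUGDH-2. Both groups lay below shNT, at 2391, 2487 and 2520.3 CPM, with shUGDH-2 nearer to it. FTL differed by 0.40 (SE 0.02, adjusted p = 5.63e-62, edgeR's quasi-likelihood test) and FTH1, the heavy chain, by 0.29. FTH1 did not pass with all 9 libraries in the fit or without shUGDH-2 replicate 2. Ferritin genes have processed pseudogenes that can share their reads. SLC7A11, the cystine importer, averaged 66.7 CPM with shUGDH-1, 86 CPM with shUGDH-2 and 113 CPM with shNT, the same order, and differed by 0.37.

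MED24 had the smallest adjusted p of the genes higher with shUGDH-2. It encodes a subunit of the Mediator complex, which links transcription factors to RNA polymerase II. Its level was 45.8, 39.8 and 44.8 CPM with shUGDH-1 and 105, 110 and 114 CPM with shUGDH-2. The shUGDH-2 libraries overlapped shNT, at 107, 110 and 110 CPM, and every shUGDH-1 library lay below them all. The difference was 1.34 (SE 0.05, adjusted p = 1.03e-71, edgeR's quasi-likelihood test). Of 33 tested Mediator subunits 4 were higher and none lower, 12.1% of the list beside 12.9% of all genes. The other 3, CCNC, MED16 and MED14, differed by 0.25, 0.18 and 0.16.

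Several single genes shared this shape, with shUGDH-1 below shNT and shUGDH-2 near it or above. TMEM64, a membrane protein gene, averaged 18.2 CPM with shUGDH-1, 31.4 CPM with shUGDH-2 and 33 CPM with shNT (log2 difference 0.78, adjusted p = 3.05e-18, edgeR's quasi-likelihood test). KYNU, kynureninase of tryptophan breakdown, had 2.61, 1.96 and 3.8 CPM with shUGDH-1 and 6.06, 8.17 and 6.8 CPM with shUGDH-2, 2.61-fold apart, with shNT at 5.15 CPM. EREG, epiregulin, a ligand of the EGF receptor, averaged 75.2 CPM with shUGDH-1, 129 CPM with shUGDH-2 and 114 CPM with shNT. EGF, another ligand of that receptor, had another order, at 2.82 CPM with shUGDH-1, 3.92 CPM with shUGDH-2 and 5.34 CPM with shNT, and did not pass between the hairpins (0.48, adjusted p = 0.111). STC1, the secreted glycoprotein stanniocalcin-1, was higher by 0.43 and VEGFA, an angiogenic growth factor, by 0.33.

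**Figure D2:**
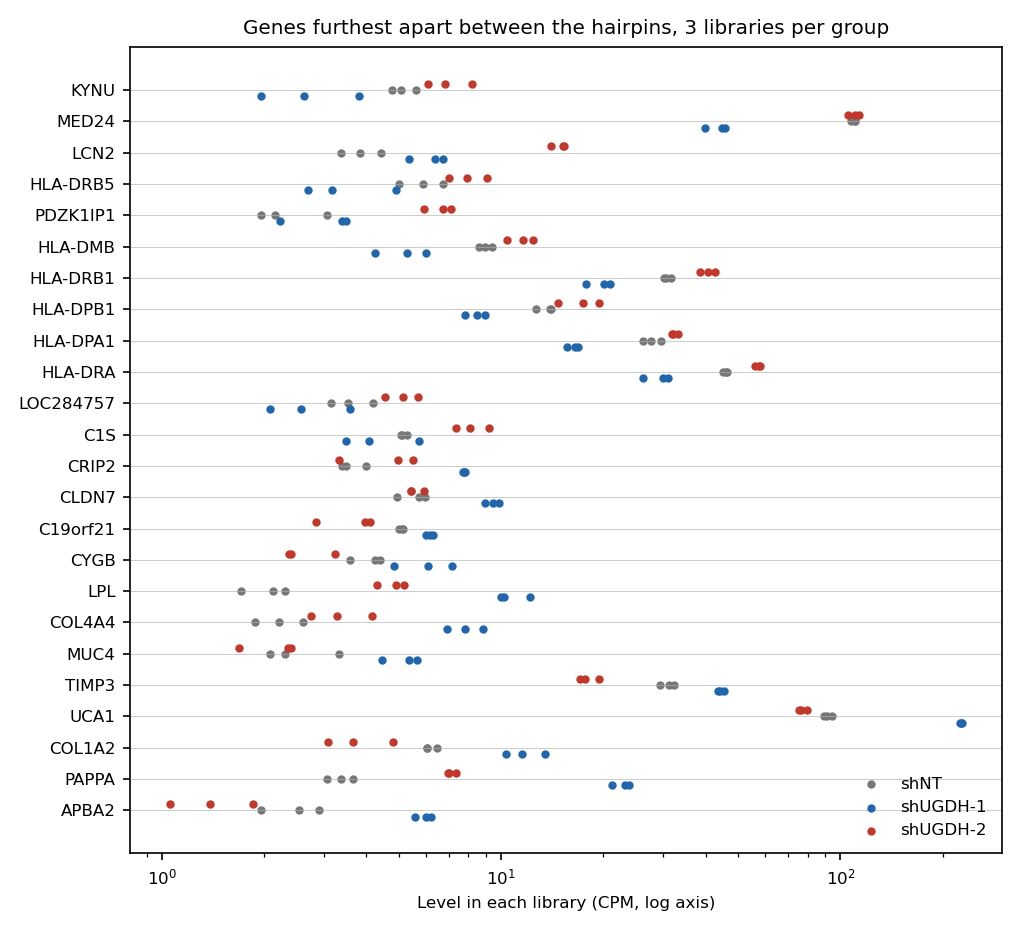
Level in each library (horizontal axis, CPM, log scale) of the 12 genes furthest higher and the 12 furthest lower with shUGDH-2 among genes that passed without overlap and reached 5 CPM in the higher group. Blue, red and grey points are the shUGDH-1, shUGDH-2 and shNT libraries, and for MED24 the grey and red points coincide near 110 CPM while for UCA1 they lie together below the blue points at 227 CPM.

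Among genes lower with shUGDH-2, UCA1 had the smallest adjusted p of all genes tested. UCA1 is a long non-coding RNA first described in urothelial cancer. Its level was 225, 227 and 229 CPM with shUGDH-1 and 75.6, 76.4 and 79.8 CPM with shUGDH-2, against 89.3, 94.1 and 91.5 CPM with shNT. The shUGDH-1 libraries stood alone, far above the rest, and both differences from shNT passed, upward with shUGDH-1 and downward with shUGDH-2. The difference between the hairpins was -1.56 (SE 0.03, adjusted p = 5.33e-108, edgeR's quasi-likelihood test).

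PAPPA, TIMP3 and COL1A2 were among the 12 genes furthest lower with shUGDH-2. PAPPA, a protease that frees insulin-like growth factors from their binding proteins, had 21.1, 23.2 and 23.8 CPM with shUGDH-1 and 7.33, 7.02 and 6.96 CPM with shUGDH-2. Both lay above shNT, at 3.37 CPM, and the hairpins differed by 3.19-fold without overlap (-1.67, SE 0.10). TIMP3, an inhibitor of matrix metalloproteases, had 44.1, 43.6 and 45.4 CPM with shUGDH-1 and 17.6, 17 and 19.3 CPM with shUGDH-2. With shNT at 30.9 CPM, TIMP3 lay on opposite sides of the control, and both differences from shNT passed. COL1A2, a chain of type I collagen, also lay on both sides, at 11.8 CPM, 3.84 CPM and, with shNT, 6.18 CPM, and differed by -1.60.

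COL1A1, the other chain of type I collagen, was higher with shUGDH-2, by 0.32 (adjusted p = 0.0323), and did not pass in 6 of its 17 alternatives. These were DESeq2, the minimum fold and the fits without shUGDH-1 replicate 2 or 3 or without shUGDH-2 replicate 1 or 3. Of 32 tested collagens and collagen-modifying enzymes, 7 were lower and 2 higher, 28.1% of the list beside 12.9% of all genes, with a median of -0.035 (6 and 0 with DESeq2), and COL4A4, a basement membrane collagen chain, was lower by -1.20. Among 15 proteoglycan core proteins 5 were lower and 2 higher, 46.7% of the list, with CSPG4, the NG2 proteoglycan, at -0.72 and SDC2, syndecan-2, at -0.41. Of 39 integrins, laminins and matrix proteases, 8 were lower and 5 higher, 33.3% of the list. ITGB4, the integrin beta-4 subunit of hemidesmosomes, averaged 550.5 ± 5.7 CPM with shUGDH-1 and 410.4 ± 2.42 CPM with shUGDH-2 (SD, n = 3), with shNT at 385 CPM.

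The largest difference among the genes of at least 5 CPM was in APBA2, an adaptor protein gene that binds the amyloid precursor protein. It had 6, 5.57 and 6.18 CPM with shUGDH-1 and 1.85, 1.39 and 1.05 CPM with shUGDH-2, a factor of 4.12, and shNT, at 2.46 CPM, lay between. MUC4, a membrane mucin, and CYGB, cytoglobin, were lower by -1.24 and -1.17. PLXNA2, a semaphorin receptor, averaged 26.8 CPM with shUGDH-1 and 18 CPM with shUGDH-2, the latter near the 18.5 CPM of shNT.

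In the routes that use the product of UGDH the shares called were 16.7% for hyaluronan and 13.8% for heparan and chondroitin sulfate synthesis, beside 12.9% of all genes. Of 12 tested hyaluronan genes 2 were lower, TMEM2, a hyaluronidase, at -0.23 and LAYN, a hyaluronan receptor, at -0.14. Of 29 genes for heparan and chondroitin sulfate synthesis 2 were higher and 2 lower. In UDP-sugar metabolism 3 of 34 genes passed, or 8.82%, below the 12.9% of all genes: GFPT2, which feeds the hexosamine pathway, at 0.39, PGM3 of the same pathway at 0.23, and HK1, hexokinase 1, at -0.07. HK1 did not pass in 14 of its 17 alternatives, among them DESeq2 and each library left out except shUGDH-2 replicate 3.

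Keratins and junction genes were lower with shUGDH-2. Of 31 tested epithelial genes 14 were lower and 2 higher, 51.6% of the list beside 12.9% of all genes, with a median of -0.18. CLDN7, a tight junction claudin, had 9.46, 8.96 and 9.87 CPM with shUGDH-1 and 5.9, 5.4 and 5.42 CPM with shUGDH-2, without overlap, and the shUGDH-2 libraries lay within the range of shNT, 4.91 to 5.95 CPM. KRT8 averaged 821 CPM with shUGDH-1, 696 CPM with shUGDH-2 and 625 CPM with shNT, so keratin 8 was higher than in the controls with both hairpins. KRT80 differed by -0.36, SPINT2, an inhibitor of membrane serine proteases, by -0.33, and OCLN, occludin, by -0.44. OCLN did not pass with DESeq2 or without shUGDH-1 replicate 2 or 3 or shUGDH-2 replicate 2 or 3. JUP, plakoglobin, was among the higher members, at 0.18. The 14 luminal breast markers, which share keratins with this list, summed to 1640 to 1680 CPM with shUGDH-1, 1430 to 1460 CPM with shUGDH-2 and 1280 to 1300 CPM with shNT. Of the 7 luminal markers tested, 1 was higher and 3 lower, 57.1% beside 12.9% of all genes. The part of cell type in these values was not tested. The 8 endothelial markers summed to 46.1 to 51.4 CPM with shUGDH-1, 31.2 to 37.7 CPM with shUGDH-2 and 29.6 to 35.6 CPM with shNT. Most of that sum was ESAM, a junction adhesion molecule, which differed by -0.56, while PECAM1, CDH5 and VWF had at most 0.255 CPM in any library.

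Mesenchymal genes were mixed. Of 29 tested, 8 were lower and 4 higher, 41.4% of the list beside 12.9% of all genes, and 5 were lower with DESeq2. VIM, vimentin, averaged 2494 ± 29 CPM with shUGDH-1 and 2147 ± 25.7 CPM with shUGDH-2 (SD, n = 3), and FN1, fibronectin, differed by -0.21, whereas SNAI2, a repressor of epithelial genes, was higher by 0.27.

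Of 38 tested YAP and SRF targets 11 were lower and 10 higher, 55.3% of the list beside 12.9% of all genes, with a median of 0.011. FOS, the largest difference of the list, is an immediate-early gene, transcribed soon after growth factors or stress. FOS had 89.3, 97.4 and 94.7 CPM with shUGDH-1 and 64, 61.1 and 63.9 CPM with shUGDH-2. The shNT libraries, at 74.5, 81.4 and 72.6 CPM, lay between without touching either group. FOS differed by -0.58, DUSP1, a MAP kinase phosphatase, by -0.36 and ATF3, a stress-induced transcription factor, by -0.35. FOSB, JUN and EGR1, transcription factor genes of the list named after their values were seen, were lower by -0.29, -0.24 and -0.10. The higher members of the list included SRF itself at 0.11 and ANKRD1, a YAP target, at 0.08.

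Metabolic lists showed many small differences. Of 39 tested genes of glycolysis and hypoxia 15 were lower and 2 higher, 43.6% of the list beside 12.9% of all genes, with a median of -0.062. GAPDH, at 2914 CPM with shUGDH-1 and 2685 CPM with shUGDH-2, differed by -0.12 and LDHA by -0.05, while ADM, adrenomedullin, and CA12, a carbonic anhydrase, differed by -0.36 and -0.35. Of 41 tested genes of sterol and fatty acid synthesis 12 were lower and 1 higher, 31.7% of the list, with a median of -0.051, and this count was 5 with DESeq2 and 6 without shUGDH-1 replicate 2 or without shUGDH-2 replicate 2. SCD, stearoyl-CoA desaturase, averaged 759 CPM with shUGDH-1, 709 CPM with shUGDH-2 and 310 CPM with shNT, a difference of -0.10 between the hairpins beside 1.29 and 1.19 over shNT. LPL, lipoprotein lipase, had 10, 12.1 and 10.2 CPM with shUGDH-1 and 4.89, 5.17 and 4.29 CPM with shUGDH-2, both above the 2.04 CPM of shNT.

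Histone transcripts were lower with shUGDH-2 in 4 of 9 tested genes, and none was higher, 44.4% of the list beside 12.9% of all genes. HIST1H2BK averaged 74.9 CPM with shUGDH-1 and 53.5 CPM with shUGDH-2, a difference of -0.50. Histone genes held 0.0124 to 0.013% of counts with shUGDH-1, 0.00931 to 0.00996% with shUGDH-2 and 0.0103 to 0.0115% with shNT. Replication-dependent histone mRNAs lack a poly(A) tail. DESeq2 called 1 histone gene lower in place of 4, and 2 were called without shUGDH-2 replicate 2 or replicate 3. Of 25 tested p53 targets 3 were higher and none lower, 12% beside the 12.9% of all genes, with SESN1, a stress-induced sestrin, at 0.67 and GDF15, a secreted stress hormone, at 0.62. Of 45 tested lysosome and autophagy genes 8 were higher and 1 lower, 20% of the list, led by MANBA, a lysosomal mannosidase, at 0.48. In this list 4 were higher with DESeq2 or without shUGDH-1 replicate 1 and 5 without shUGDH-2 replicate 1. In the IGF axis 4 of 15 genes were higher and 3 lower (46.7% of the list), and in activin and TGF-beta signalling 6 of 38 were higher and 3 lower (23.7%). Replication and mitosis genes, with 7 of 50 called in each list, stood near the 12.9% of all genes.

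**Figure D3:**
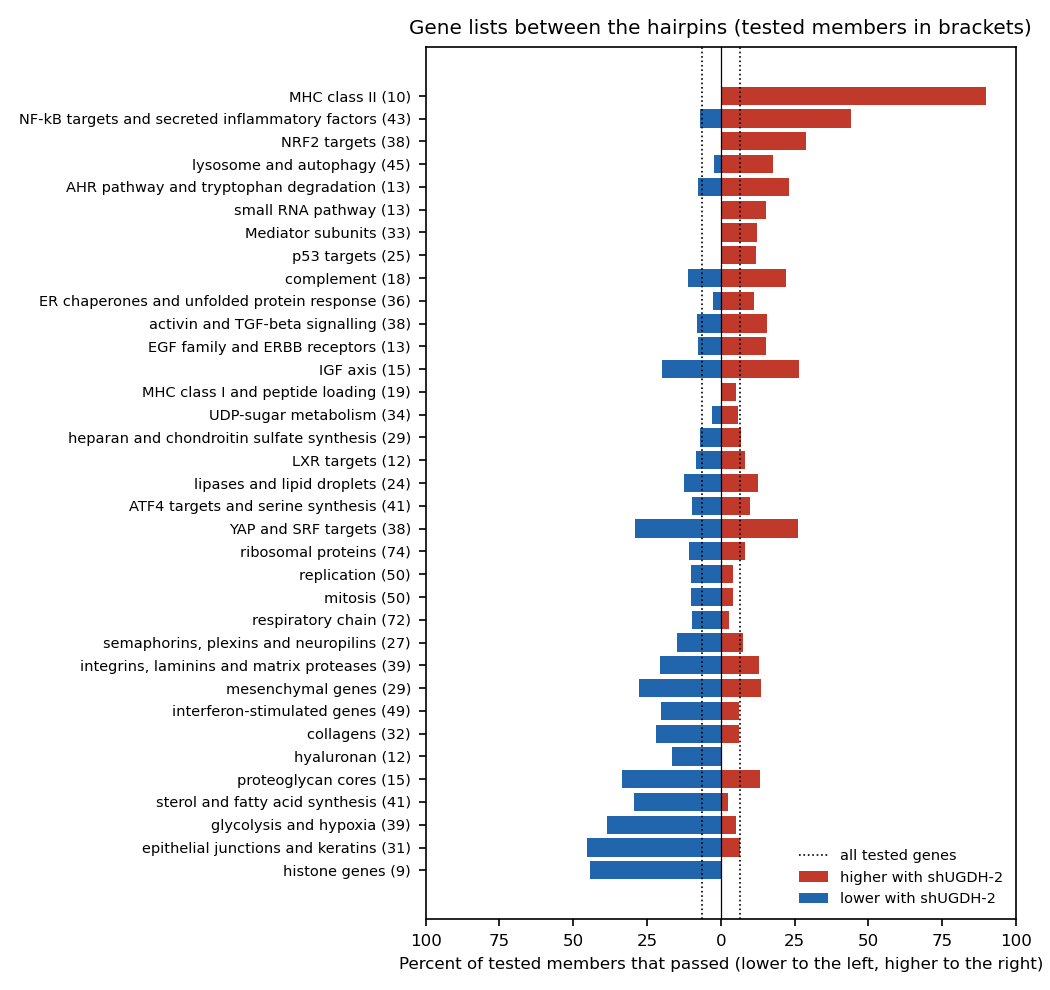
Share of the tested members of each gene list that passed as higher (red, to the right) and lower (blue, to the left) with shUGDH-2, in percent, with the number of tested members in brackets. Dotted lines mark the shares over all tested genes, 6.42% higher and 6.49% lower, and MHC class II, with 9 of 10 members higher, extends furthest.

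The level of shNT, which did not enter the test between the hairpins, was set beside both hairpins. For 840 of the 1606 genes (52.3%) the shNT mean lay between both hairpin means, against 28.4% of all genes tested and 24.9% of the genes that did not pass. For 429 it lay below both and for 337 above both. Among the 118 genes that differed by 1.5-fold or more the share between was 61%. A wider gap between the hairpins leaves more room between them, so these shares are a description. Of the 840, the shNT mean was nearer to shUGDH-2 for 503 and nearer to shUGDH-1 for 337. HLA-DRA, TIMP3, COL1A2, UCA1 and FOS are examples on opposite sides of shNT.

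Differences also lay together along certain chromosomes. Gene order was taken from RefSeq (GRCh38.p14) for 12171 of the genes tested (97.8%), for order only, as the counts were made on hg19. On chromosome 4, 141 of 445 tested genes were higher and 3 lower with shUGDH-2, or 32.4% against 12.9% of all genes, and the chromosome's median difference was 0.14. Chromosome 10 had 21 higher and 79 lower of 492, chromosome 6 had 95 higher and 22 lower of 628, and chromosome 20 had 63 and 39 of 338. Chromosome X had 42 higher and 11 lower of 403, with a median of 0.0461. On the other chromosomes medians lay between -0.0365 and 0.0057.

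Running medians over 50 neighbouring tested genes drew the borders. The highest was 0.18, around MOB1B on chromosome 4 (LNX1 to CCNI), where 23 of the 50 genes were higher and none lower, and the lowest was -0.17, around BUB3 on chromosome 10 (CACUL1 to PWWP2B), where 30 were lower and none higher. Windows with a median at least 0.1 from 0 joined into 9 stretches of 889 genes in all, which were chosen from these same values, so their differences are a description. In them 33.1% of genes passed, and 11.4% of the 11282 genes elsewhere.

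**Figure D4:**
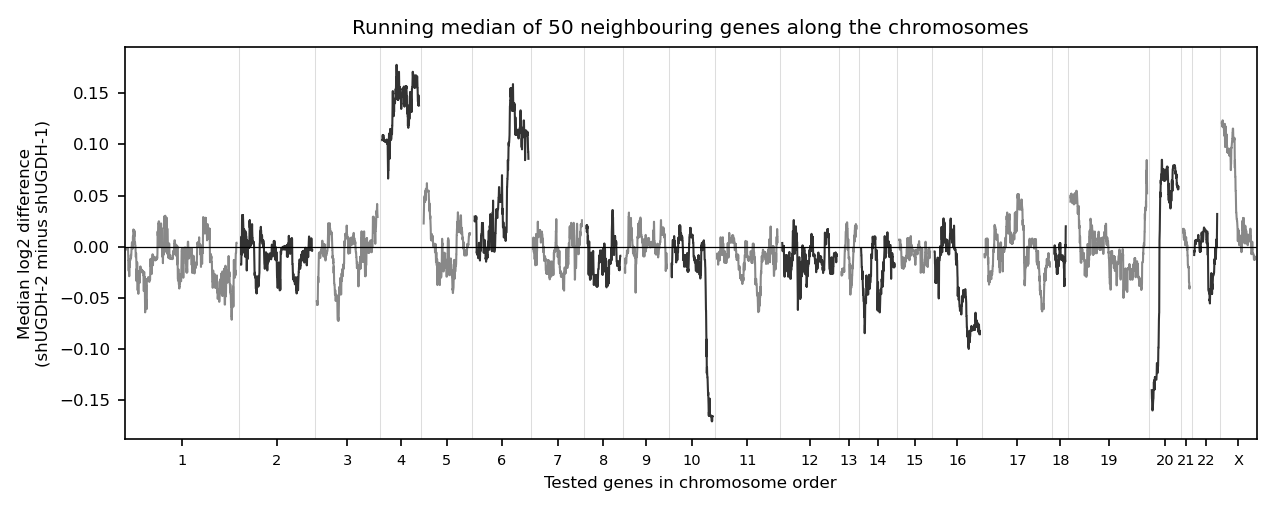
Median log2 difference (vertical axis, shUGDH-2 minus shUGDH-1) in running windows of 50 neighbouring tested genes, in chromosome order (horizontal axis, chromosomes alternately grey and black). Of the windows, 95% lie between -0.076 and 0.138, and the line steps up over chromosome 4 and the latter part of chromosome 6 and down at the end of chromosome 10 and the start of chromosome 20.

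On chromosome 4, from C4orf19 to FRG1, 115 of 337 genes were higher and 2 lower, with a median of 0.15, a factor of 1.11, and 88.4% of the genes stood above 0. Relative to the mean of all 9 libraries, the median gene of this stretch was at -0.10, -0.11 and -0.12 in the shUGDH-1 libraries, at 0.02, 0.05 and 0.03 in the shUGDH-2 libraries and at 0.10, 0.06 and 0.06 in the shNT libraries, on the log2 scale. All shUGDH-1 libraries were low, and shUGDH-2 lay nearer to shNT. On chromosome 6, from UBE3D to MTFR2, 37 of 136 genes were higher and 2 lower with a median of 0.13. On X, from PLCXD1 to SH3KBP1, 13 of 59 genes were higher and 1 lower with a median of 0.12. From GRIPAP1 to APEX2, also on X, 8 of 31 were higher and 0 lower with a median of 0.11.

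The chromosome 10 and 20 stretches ran the other way. From MXI1 to SPRN, at the end of chromosome 10, 49 of 89 genes were lower with shUGDH-2 and none higher, with a median of -0.17, and 9 neighbours in a row, from PRDX3 to PPAPDC1A, passed as lower. The median gene there stood 0.06 above shNT with shUGDH-1 and at -0.12 relative to shNT with shUGDH-2. From C20orf96 to NAPB, on chromosome 20, 29 of 95 genes were lower and 2 higher with a median of -0.13, while in the rest of chromosome 20 61 of 243 were higher and 10 lower with a median of 0.06. The border on chromosome 20 thus separated a lower from a higher part. Only RNA was measured, and no DNA data of these cultures were used here.

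**Figure D5:**
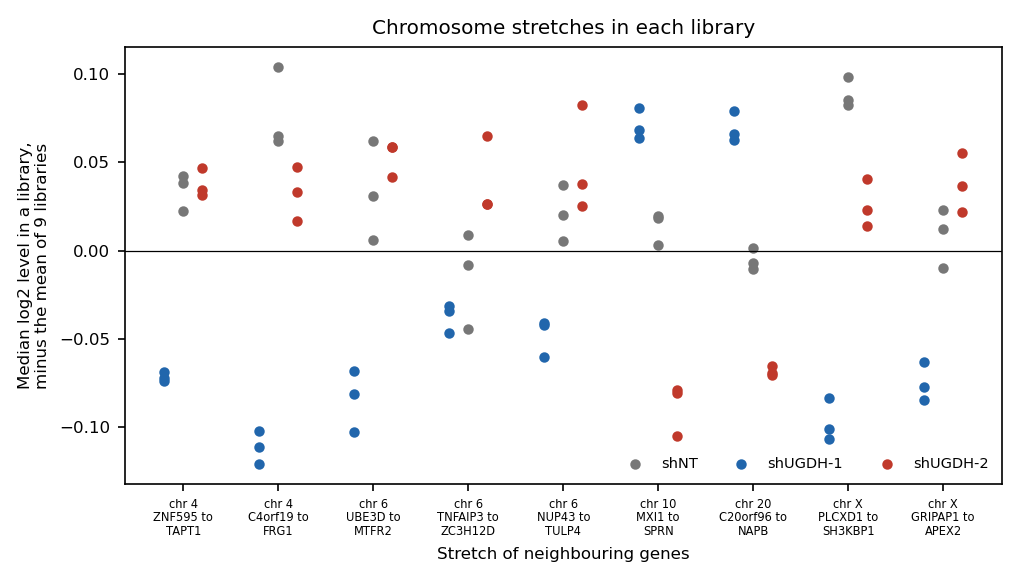
Median log2 level of the genes of each of the 9 stretches in each library, relative to the mean of the 9 libraries (vertical axis), with grey, blue and red points for shNT, shUGDH-1 and shUGDH-2. In every stretch the blue and red points do not overlap, which follows in part from how the stretches were chosen, and on chromosome 10 and chromosome 20 the blue points lie on top.

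Some named genes lie in these stretches, and part of them differ by about as much as their neighbours. UGDH itself is in the chromosome 4 stretch, where the window around it had a median of 0.11. Its own difference, -0.09, had the opposite sign and did not pass. RPL9, RPL34 and RPS3A, ribosomal protein genes of chromosome 4, differed by 0.16, 0.17 and 0.16 beside local medians of 0.11, 0.16 and 0.16. They are 3 of the 6 ribosomal protein genes that were higher, beside 8 that were lower, of 74 tested, or 18.9% called beside 12.9% of all genes. Processed pseudogenes can share their reads. BUB3 and MKI67, genes of mitosis and proliferation on chromosome 10, differed by -0.26 and -0.21 where the local median was -0.17 for both, and PCNA, the replication clamp, on chromosome 20, by -0.19 where it was -0.13. EREG, at 0.77 beside a local median of 0.15, and SLC7A11, at 0.37 beside 0.15, exceeded theirs, as did CCNC on chromosome 6, at 0.25 beside 0.14.

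The lists were counted again outside the stretches. All 10 MHC class II genes tested lie outside them, and the window around HLA-DRA had a median of 0.02. Outside the stretches 16 of 37 NF-kB list members were higher and 3 lower, with the median at 0.15 as before. The higher members inside them were NFKB1, IL8 and CXCL2. CXCL2, at 0.25, was the centre of the highest window of 25 genes, on chromosome 4, with a median of 0.22. Of 24 leading genes 23 had a place, and among their 79 nearest tested neighbours that were not leading genes themselves, 11 were higher and 4 lower, beside 6.42% and 6.49% of all genes. Next to MED24 on chromosome 17, CSF3 was higher by 0.70, and PSMD3 and THRA, at 0.06 and -0.03, did not pass. Whether the counting used strand is not given in the sources used here, so reads of overlapping neighbours cannot be told apart. Next to UCA1, WIZ, at 0.06, did not pass and TPM4, a tropomyosin, was higher by 0.05. The neighbours of KYNU, SPOPL at -0.001 and GTDC1 at 0.12, did not pass, and next to PAPPA, at -1.67, TNC, tenascin-C, was higher by 0.28.

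The seeds of the guides were then set against the 3′ UTRs. A 3′ UTR of at least 50 bases in GENCODE 29 was at hand for 11665 of the genes tested, 771 of them higher and 782 lower with shUGDH-2. The complement of the shUGDH-1 seed, TGATGCA, was present in 18% of the genes higher with shUGDH-2, which are the genes lower with shUGDH-1, in 7.54% of those lower, and in 11.3% of all. The complement of the shUGDH-2 seed, AAGTATA, was present in 16.1%, 16% and 15.1%. Among genes that passed at 1.5-fold or more, TGATGCA was in 10 of 50 higher (20%) and 9 of 54 lower genes (16.7%). AAGTATA was in 7 (14%) and 12 (22.2%) of them. The complement of bases 2 to 8 of the shUGDH-1 passenger was in 1.17% of higher, 0.767% of lower and 0.9% of all genes. For the shUGDH-2 passenger these shares were 16.3%, 14.6% and 14.5%. Long UTRs hold more of any 7 letters, and the median UTR length was 1778 bases in the higher, 1321 in the lower and 1396 in all genes. Within UTRs longer than the median the shUGDH-1 complement was in 25.5% of higher, 13.4% of lower and 19.1% of all genes, and within shorter UTRs in 7.28%, 2.2% and 3.5%.

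The shift of the median gene with a seed complement was small. Genes with TGATGCA had a median log2 difference between the hairpins of 0.0132, and of -0.0266 for shUGDH-1 and -0.0125 for shUGDH-2 against shNT, and these contrasts share the shNT libraries. Genes without it had -0.0027, 0.002 and -0.00156. Genes with AAGTATA had -0.00367 between the hairpins, and -0.0363 for shUGDH-1 and -0.0351 for shUGDH-2 against shNT. Those without AAGTATA had -0.000266, 0.00427 and 0.00348. The median UTR length was 3269 bases with TGATGCA and 1238 without, and 3281 with AAGTATA and 1180 without. Outside the chromosome stretches TGATGCA was in 18.1% of higher and 7.75% of lower genes, and AAGTATA in 12.6% of higher, 16.4% of lower and 14.7% of all. These shares are descriptions, and a match is not a shown site.

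Sites in 3′ UTRs of genes higher with shUGDH-2 that hold the shUGDH-1 complement are shown as examples, with the 7 bases in capitals, beside a pair of genes lower with shUGDH-2 that hold it too.
CCNC: gtcataggatatTGATGCAc
GINS3: cttaggctgtctTGATGCAa
INSR: ctttcaggctggTGATGCAc
SLC7A11: attacatggtagTGATGCAc
PAPPA: gagaggcagctcTGATGCAc
TIMP3: gagagtcggagaTGATGCAg
CCNC, cyclin C of the Mediator kinase module, GINS3, a subunit of the replicative helicase, and INSR, the insulin receptor, were higher by 0.25, 0.30 and 0.34, and SLC7A11, with 2 such sites, by 0.37. CCNC and SLC7A11 lie in chromosome stretches, on chromosomes 6 and 4, with local medians of 0.14 and 0.15. PAPPA and TIMP3 were lower, by -1.67 and -1.30, with the same letters in their UTRs. TMEM64 held 1 complement of each seed. MED24, HLA-DRA, HLA-DRB1, HLA-DRB5, HLA-DMB, HLA-DPA1, HLA-DPB1 and CD74 held neither.

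Near matches of the whole guide, at 16 or more of 19 bases, were few. Beside UGDH, no tested gene matched the shUGDH-1 guide at more than 15 of 19 bases, and of 21 genes at 15 bases 1 was higher and 1 lower. For the shUGDH-2 guide, 118 genes matched at 15 bases, of which 4 were higher and 12 lower. Over all genes tested, 6.42% were higher and 6.49% lower. The shUGDH-2 guide matched 16 of 19 bases in 16 genes, of which ACVR1B, an activin receptor, was higher by 0.35 and SC5DL, a sterol desaturase, lower by -0.28. ACVR1B did not pass with DESeq2 or without shUGDH-2 replicate 3. The SC5DL site is shown with the bases that differ from a full complement in capitals, as it is the only one of the 16 in a gene lower with shUGDH-2.
SC5DL: cagcagatctgTagtTtGt
Each differing base of the SC5DL site lies opposite the seed, so the site holds no full seed complement. The 3′ UTR of SC5DL held 1 complement of the shUGDH-1 seed and 0 of the shUGDH-2 seed. SC5DL averaged 37.9 CPM with shUGDH-1, 31.2 CPM with shUGDH-2 and 36.4 CPM with shNT. The passenger strand of shUGDH-2 matched 16 bases in 9 genes, of which FNDC3B and LIG3 were higher with shUGDH-2, by 0.09 and 0.15, and did not pass in 8 and 9 of their 17 alternatives. At 15 bases this strand matched 93 genes, of which 7 were higher and 6 lower.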

How the data were processed

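The authors deposited a table of raw counts per gene for 9 RNA-seq libraries. Reads were mapped to hg19, and STAR, DESeq and DESeq2 are named, per the submitters' processing notes. Not given in the sources used here: versions, the counting tool and its strand setting. In the table, 28 entries whose names had been turned into dates, with 0.231% of counts, name no gene. They were left out of the naming of genes only, and stayed in the counts that were filtered and fitted. No columns of other series were present.

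From the counts, low genes were removed with filterByExpr, and the 6 hairpin libraries were TMM-scaled and tested with edgeR's quasi-likelihood method, robust option (edgeR 4.0.16, R 4.3.3), with Benjamini-Hochberg adjustment over all 12442 genes and a threshold of 0.05. The SE is the log2 difference divided by the square root of F. Levels are CPM with TMM factors over all 9 libraries. Differences from shNT came from a separate edgeR quasi-likelihood fit of the groups over all 9 libraries. Their p-values were adjusted after Benjamini-Hochberg over the 12442 genes for each hairpin, with the threshold of 0.05. Library totals of 9249738 to 13328002 counts set the precision: at the 74 to 99 reads of UGDH the 95% interval spans -0.36 to 0.18. Alternatives used DESeq2 1.42.0, limma 3.58.1, other scalings and filters, a minimum fold, a replicate block, and each library left out in turn. Those outside the chromosome stretches, relative to local medians and by UTR length were added after seeing the data. The analysis of counts was tested on simulated data.

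The comparison, its members and the gene lists were chosen with earlier results of these data known. Named were UGDH, the 12 largest differences each way among genes that passed without overlap and reached 5 CPM in the higher group, the 5 smallest adjusted p each way, up to 3 members per list that passed, MED24, PAPPA, LPL, LCN2, C3, KYNU, EGF and TMEM64, genes that passed and match 16 or more of 19 guide bases, and window centres. Neighbours and the ends of windows and stretches follow from gene order. CIITA, HLA-DMA, HLA-DOA, CSF3, IL6, IL8, NFKB1, NFKBIA, CXCL2, JUN, FOSB, EGR1, C1R, CLU, CD46, SPINT2, JUP, IFIT3, IRF1, GBP1, GBP2, LIPA, GAPDH, LDHA, SCD, IL1A, CSF2, IL11, SNAI2, FN1, ISG15, MED14, SRF and ANKRD1 were chosen after their values were seen. Some members of the lists are not reported here. Guides were matched to GENCODE 29 transcripts on GRCh38 (12121 genes by symbol). Promoters and gene order came from RefSeq GRCh38.p14, and nothing was converted between builds.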

Additional observations from a re-analysis of the deposited data

How the results depend on the processing

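None of the 1606 calls changed sign under any alternative. DESeq2 called 391 genes higher and 378 lower, and 86 list members lower in place of 144. Against a minimum fold of 1.2, 47 were higher and 43 lower, with 20 and 14 list members. With 1 library left out in turn, 609 to 696 genes were higher and 623 to 707 lower, list members 114 to 126 and 113 to 134, the UGDH difference -0.182 to -0.0348, the median of chromosome 4 0.127 to 0.146, of chromosome 6 0.0526 to 0.0613, of the chromosome 10 stretch -0.175 to -0.141 and of the chromosome 20 stretch -0.147 to -0.13. Windows of 25 genes reached 0.218 and -0.203.

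Shares with a seed complement moved with the seed register and with UTR length. With guide bases 3 to 9, the shUGDH-1 complement was in 14.1% of higher, 9.21% of lower and 9.72% of all genes, and the shUGDH-2 complement in 11.5%, 13.3% and 12.1%. With bases 1 to 7 the shUGDH-1 complement was in 17.3%, 4.73% and 8.4%. In UTRs longer than the median the shares of higher and lower genes were 25.5% and 13.4% for shUGDH-1 (19.1% of all) and 23.7% and 29% for shUGDH-2 (25.7% of all). In shorter UTRs they were 7.28% and 2.2% (3.5% of all), and 5.06% and 4.16% (4.49% of all). Outside the stretches the shUGDH-2 complement was in 12.6% of higher and 14.7% of all genes.

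The replicate numbers did not pair the libraries (correlations of deviations -0.071, -0.019 and -0.04), and with the replicate block 1542 genes were called, 763 higher and 779 lower, 1521 of them shared. Of 2501 values for 148 named genes under the alternatives, 2246 kept their direction and side of the threshold, 252 lost significance, 3 gained it and none reversed. CCL5, at 2 to 14 reads per library, did not pass in 7 of its alternatives. The cause of these changes was not tested. Depth limits genes of a few reads, for which only large differences could pass.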

Other observations

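A few genes were at 0 in every library of 1 hairpin with at least 10 counts over the libraries of the other. CCDC39, a gene of motile cilia, had 0 counts with shUGDH-1, 12 with shUGDH-2 and 1 with shNT. COLEC12, a scavenger receptor, had 0 counts with shUGDH-2, 19 with shUGDH-1 and 2 with shNT. PKP1, plakophilin 1 of desmosomes, ZBTB32, a zinc finger gene, and COL9A3, a collagen chain, had 0 counts with shUGDH-2 and 10, 12 and 10 with shUGDH-1, and 3, 7 and 5 with shNT. PKP1 ranged from 0 to 6 counts over the shUGDH-1 libraries. The genes were chosen by these counts, which are near the floor, so the values are a description.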
